A study of Mus musculus with 4 samples.

Results

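The unfolded protein response and the secretory machinery of the endoplasmic reticulum (ER) were followed as a set of 38 genes, out of 46095 genes counted in the stomach of wild type (WT) and c-Myc transgenic mice. The set was chosen by function, as sensors of ER stress and their targets, chaperones, disulfide isomerases, components of the protein translocation channel and components of ER-associated degradation. All 38 genes had a row in the table, and all 38 passed the filter on low counts that left 17643 genes for testing. The lowest count of any of them in any sample was 63.

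Total RNA from the stomach was sequenced in bulk from mice aged 12 weeks on a C57BL/6 background, with 2 WT and 2 MYC-KI samples. The MYC-KI samples came from the genotype written Atp4b-cre;MycOE (Atp4b-cre; Myc fl/+), in which Cre recombinase under the promoter of *Atp4b*, a proton pump subunit of the parietal cell, switches on a human *c-Myc* transgene in the parietal cell lineage. The WT samples were from Myc fl/fl littermates, so both genotypes carried the floxed transgene, and WT is named without Cre. The series describes triplicates, but 2 samples per genotype were analysed here. Mice of both sexes were used in the study, and the labels do not give the sex of a sample or say whether replicates were separate mice. The p-values therefore measure only the spread between these samples, which may be technical. Total counts per sample ranged from 30260305 to 41463647.

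The names and counts in the deposited table were out of step between the genotypes, and this was dealt with before any comparison. As deposited, log2 counts of WT and MYC-KI correlated across genes with Pearson's r = 0.524. The names were therefore sorted by character code, capitals before lower case, and the counts of both MYC-KI columns were put against them in the order of the rows. In the re-sorted table r was 0.985, close to the 0.986 between both WT samples and the 0.983 between both MYC-KI samples. These correlations are across genes, which are not independent replicates. The values below rest on the re-sorted table unless the table as deposited is named. Of the 46095 genes, 3109 (6.74%) keep the same place in both orders, and 6 of the 38 members are among them (*Ern1*, *Ern2*, *Eif2ak3*, *Creld2*, *Edem1* and *Edem2*). The row of mouse *Myc* held 31.6 and 27.2 CPM (the count divided by the scaled library size) in WT and 21.7 and 24.4 in MYC-KI, and the log2 fold change, given throughout with its standard error, was -0.35 ± 0.14 (adjusted p = 0.163 by edgeR's quasi-likelihood test). The table names no row as the human gene, so the transgene is not checked by this value.

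The unfolded protein response adjusts the folding capacity of the ER to the load of secreted protein. Its sensors are IRE1, which splices the mRNA of the transcription factor XBP1, ATF6, which is cleaved to release a transcription factor, and PERK, which phosphorylates the translation factor eIF2-alpha and thereby favours translation of ATF4. Secretory cells such as the pepsinogen-producing chief cells of the stomach keep this machinery at a high level, and XBP1 together with MIST1 (the product of *Bhlha15*) is known for shaping it there. Counts per gene do not resolve the spliced form of *Xbp1* or the processed forms of the sensors, so these data speak only to mRNA levels.

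The classical targets of the response carry an ER stress element in the promoter, which is CCAAT, then 9 bases, then CCACG. A RefSeq promoter on GRCm38.p6, the patched release of mm10, was matched for 30 of the 38 genes. Of the 5 genes that were lower in MYC-KI, which are described below, *Derl3*, *Herpud1*, *Chac1* and *Edem1* are shown, together with *Syvn1* and *Canx*, which hold the element but were not past the thresholds. Each line gives bases upstream of the RefSeq start, 5′ to 3′ on the strand of the gene, up to the start or, for *Chac1*, up to the first base of the annotated gene. Capitals mark the ER stress element (CCAAT and CCACG, or CGTGG and ATTGG when read on the other strand), a closer-spaced variant (ATTGG, 1 base, CCACG), the C/EBP-ATF element TTGCATCA bound by ATF4 and CHOP, and the E-box CACGTG bound by MYC and its partners.
Derl3: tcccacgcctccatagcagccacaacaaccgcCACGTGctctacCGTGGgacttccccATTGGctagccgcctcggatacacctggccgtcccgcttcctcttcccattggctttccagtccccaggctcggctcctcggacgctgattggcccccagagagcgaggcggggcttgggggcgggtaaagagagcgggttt
Herpud1: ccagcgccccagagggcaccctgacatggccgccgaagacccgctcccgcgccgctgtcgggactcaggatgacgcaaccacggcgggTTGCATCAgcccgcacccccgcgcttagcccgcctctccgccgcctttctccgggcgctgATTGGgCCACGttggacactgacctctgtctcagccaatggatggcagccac
Chac1: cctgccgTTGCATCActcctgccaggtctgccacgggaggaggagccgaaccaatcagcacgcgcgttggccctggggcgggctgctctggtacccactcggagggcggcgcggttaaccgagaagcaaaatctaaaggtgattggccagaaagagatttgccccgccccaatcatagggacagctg
Edem1: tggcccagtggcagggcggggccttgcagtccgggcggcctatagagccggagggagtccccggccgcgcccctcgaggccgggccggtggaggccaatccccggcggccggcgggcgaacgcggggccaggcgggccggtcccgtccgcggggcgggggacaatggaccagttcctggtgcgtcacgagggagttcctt
Syvn1: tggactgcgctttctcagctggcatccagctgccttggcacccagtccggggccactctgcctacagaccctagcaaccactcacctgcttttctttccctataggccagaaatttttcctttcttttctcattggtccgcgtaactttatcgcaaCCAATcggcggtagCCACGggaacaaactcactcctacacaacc
Canx: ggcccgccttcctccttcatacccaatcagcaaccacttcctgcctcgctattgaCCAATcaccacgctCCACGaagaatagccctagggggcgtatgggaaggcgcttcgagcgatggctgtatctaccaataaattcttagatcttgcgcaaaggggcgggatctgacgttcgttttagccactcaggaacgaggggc
These windows lie at chr10:75893198-75893397 (plus strand) for *Derl3*, chr8:94386229-94386428 (plus) for *Herpud1*, chr2:119351042-119351228 (plus) for *Chac1*, chr6:108828441-108828640 (plus) for *Edem1*, chr19:6046376-6046575 (plus) for *Syvn1* and chr11:50325674-50325873 (minus) for *Canx*.

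Both strands of the 300 bases around each start (250 before and 50 after) were searched. The ER stress element was found in 9 of the 30 member promoters (30.0%) and in 39 of all 32851 promoters (0.119%). The 9 genes were *Calr*, *Canx*, *Creld2*, *Derl3*, *Dnajc3*, *Hsp90b1*, *Hspa5*, *Pdia6* and *Syvn1*. The element in *Derl3* lay on the minus strand from -156 to -138, counted in bases from the start, and that in *Hspa5* on the plus strand from -65 to -47. Among these 9 genes only *Derl3* passed the thresholds between the genotypes. Their median log2 fold change was 0.02, and that of the 9 other tested genes with the element was 0.11, with 2 of those lower (*Acacb* and *Spats2l*).

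The other motifs were counted in the same way. The sequence CCACG, which is the second part of the ER stress element and so is counted again wherever that element occurs, was in 24 of the 30 member promoters and in 32.8% of all promoters. TTGCATCA was in 2 member promoters, *Chac1* from -193 to -186 and *Herpud1* from -112 to -105, and in 0.895% of all promoters. CACGTG, which overlaps CCACG when a C precedes it, was in 4 member promoters (*Calr*, *Derl3*, *Dnajb9* and *Ssr1*) and in 7.15% of all promoters. The variant ATTGG, 1 base, CCACG was added to the search after the *Herpud1* promoter had been read. It occurred in *Herpud1* from -52 to -42 and in *Dnajb11*, and in 0.0365% of all promoters. TGACGTGG, bound by XBP1, and the C/EBP-ATF form TGATGCAAT were in none of the 30, against 0.676% and 0.192% of all promoters. A match describes the letters in the window and not binding, and no match says nothing of the factor.

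Between the genotypes, no member of the set was higher in MYC-KI and 5 of 38 (13.2%) were lower. These were *Derl3*, *Herpud1* and *Edem1*, which act in ER-associated degradation, *Dnajb9*, a co-chaperone of the lumenal HSP70, and *Chac1*, a target of ATF4 and CHOP that degrades glutathione. Calls required an adjusted p under 0.05 in edgeR's quasi-likelihood test over all genes tested and a change of more than 1.5-fold in either direction. Among all genes tested, 5.65% were called higher and 5.08% lower by the same rule. At an unadjusted p under 0.05 there were 20 members, 11 of them lower and 9 higher, against 34.1% of all genes. DESeq2 also called 0 members higher and 5 lower by the same thresholds, and the 5 genes were the same. Among all genes tested it called 8.35% higher and 9.64% lower, so the share of lower members stood closer to the background than in edgeR.

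The 38 genes as a group lay about level between the genotypes. The median log2 fold change of the 38 genes was -0.03 against 0.01 over all genes tested, with 19 genes above 0 and 19 below. Both MYC-KI samples were above both WT samples for 12 members and below for 16, and the groups overlapped for 10. Over all genes tested, 33.3% had both MYC-KI samples above both WT samples and 31.5% had both below. The summed level of the members was 10784 and 10396 CPM in WT and 10397 and 10170 CPM in MYC-KI, so the sums differed little between the samples. The CPM values are scaled by trimmed means (TMM). Scaling by library size alone moved the median of all genes up by 0.22 on the log2 scale, and the share of higher genes among all called genes from 52.6% to 75.5%. Under that scaling 3 members were called higher (*Ern2*, *Sil1* and *Sec11c*) and 3 lower (*Chac1*, *Herpud1* and *Derl3*), against 12.9% and 4.19% of all genes tested.

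**Figure D1:**
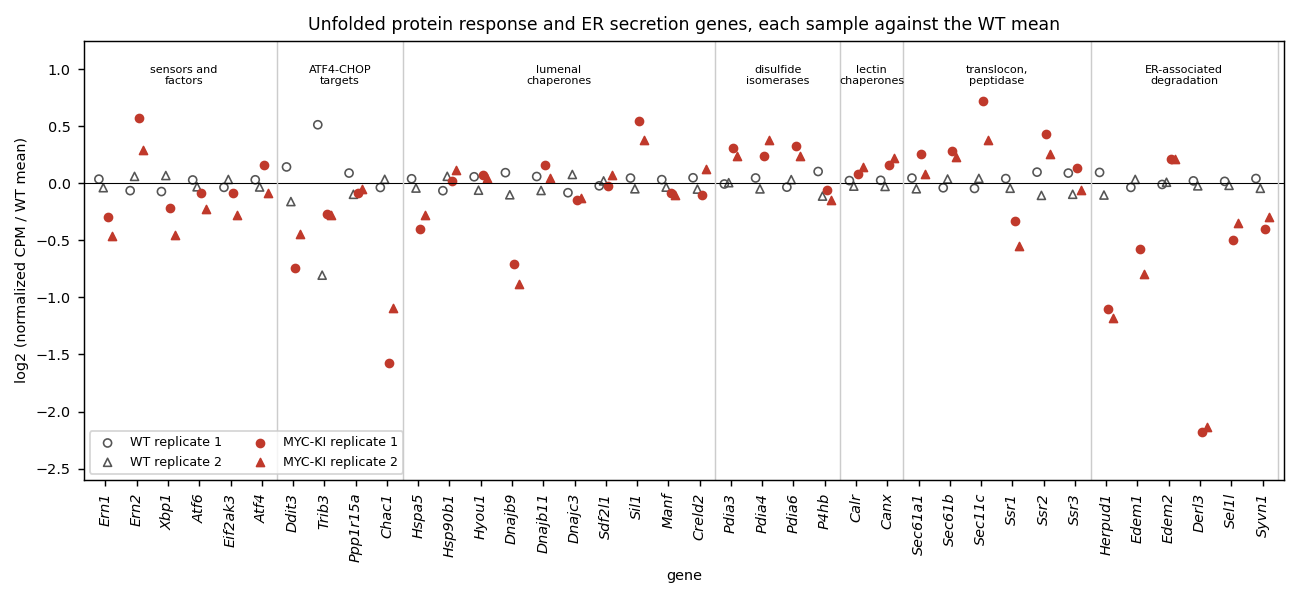
Level of each of the 38 genes in each sample, as log2 of the normalized CPM over the mean of both WT samples (vertical axis), with genes grouped by role along the horizontal axis. Open symbols are WT and filled symbols MYC-KI, with a circle for replicate 1 and a triangle for replicate 2. Most MYC-KI points lie within 0.6 of the WT mean on either side, and the 2 *Derl3* points lie farthest below it.

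Genes of ER-associated degradation, the route by which misfolded proteins are drawn out of the ER and destroyed, held 3 of the 5 lower genes. Their median log2 fold change was -0.55, with 0 of 6 called higher and 3 of 6 called lower. *Derl3* (chr10:75893413-75895941, plus strand, GENCODE M21 on mm10) encodes a derlin of the ER membrane that passes misfolded glycoproteins to the cytosol and is known from secretory cells. It held 9.09 and 8.82 CPM in WT and 1.98 and 2.04 CPM in MYC-KI. Both MYC-KI samples were far below both WT samples, and the replicates of each genotype were close to each other. The level fell 4.46-fold (log2 fold change -2.16 ± 0.22, edgeR adjusted p = 0.0200), from 8.95 ± 0.191 to 2.01 ± 0.0437 CPM (mean ± SD, n = 2). The counts behind these values were 305 and 246 in WT and 67 and 91 in MYC-KI.

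*Herpud1* (chr8:94386438-94395377, plus strand) encodes a membrane protein that assembles the degradation complex around the ubiquitin ligase HRD1. It held 397 and 346 CPM in WT and 174 and 164 CPM in MYC-KI. The groups did not overlap, and the gap between them was wider than the difference between the WT samples. The level fell 2.20-fold (log2 fold change -1.14 ± 0.11, edgeR adjusted p = 0.0189). *Edem1* (chr6:108828641-108859356, plus strand) encodes a lectin-like protein that trims mannose from misfolded glycoproteins and marks them for removal. It held 217 and 228 CPM in WT and 149 and 129 CPM in MYC-KI. All values of MYC-KI were again below those of WT, and the level fell 1.60-fold (log2 fold change -0.68 ± 0.11, edgeR adjusted p = 0.0334). *Edem1* keeps its row in both name orders, and in a fit of only the 1355 tested genes that do so its log2 fold change was -0.72 (edgeR adjusted p = 0.0286).

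The other 3 genes of this group were not past the thresholds. *Syvn1*, which encodes the ligase HRD1, held 115 and 108 CPM in WT and 84.7 and 91.1 CPM in MYC-KI (log2 fold change -0.35 ± 0.09, edgeR adjusted p = 0.0701). *Sel1l*, its scaffold partner, held 309 and 302 CPM in WT and 216 and 239 CPM in MYC-KI (-0.42 ± 0.09, edgeR adjusted p = 0.0555). For both genes the MYC-KI samples were below the WT samples without overlap. *Edem2*, which acts before *Edem1* in mannose trimming, was the exception in direction, with 97.1 and 98.4 CPM in WT and 114 and 113 CPM in MYC-KI (0.22 ± 0.07, edgeR adjusted p = 0.122). Of 18 further tested genes of the degradation pathway 0 were called by edgeR or by DESeq2, 2 were at an unadjusted p under 0.05, and their median was -0.07. *Rnf5*, also on that list, had 0 counts in every sample.

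**Figure D2:**
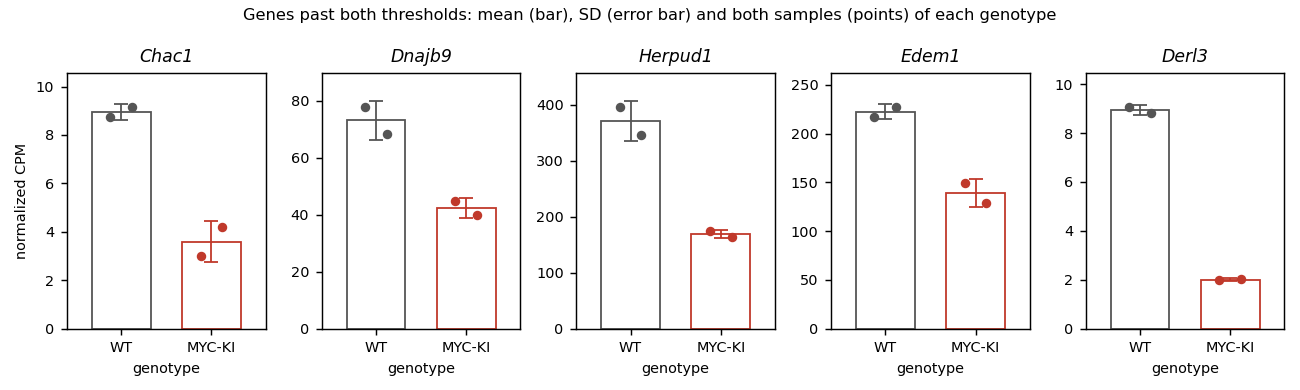
Normalized CPM (vertical axis, starting at 0) of the 5 genes that passed the thresholds, in WT and MYC-KI (horizontal axis). Bars are means, error bars SD and points the 2 samples of each genotype. In each panel both MYC-KI points lie below both WT points, from 8.95 to 2.01 CPM on average for *Derl3* and from 222 to 139 CPM for *Edem1*.

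The lumenal chaperones of the HSP70 and HSP90 families and their helpers had a median log2 fold change of 0.02, and 1 of 10 was called, which was *Dnajb9*. *Dnajb9* (chr12:44205559-44210326, minus strand) encodes ERdj4, a J-domain protein that is a target of XBP1 and represses IRE1. It held 77.9 and 68.1 CPM in WT and 44.6 and 39.7 CPM in MYC-KI. Both MYC-KI samples were below both WT samples, and the level fell 1.73-fold (log2 fold change -0.79 ± 0.11, edgeR adjusted p = 0.0302). Of the 50-base stretches of its transcripts, 5.50% also occur in transcripts of *Gm6568*, so some of its reads could belong there.

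*Hspa5* encodes BiP, the HSP70 of the ER lumen that binds the sensors when the ER is not under load. It held 1368 and 1293 CPM in WT and 1011 and 1100.1 CPM in MYC-KI. The groups did not overlap, but the difference was not past the thresholds (log2 fold change -0.33 ± 0.10, edgeR adjusted p = 0.103). *Hsp90b1*, the HSP90 of the lumen, held 749 and 818 CPM in WT and 795 and 852 CPM in MYC-KI, and its groups overlapped (0.07 ± 0.10, edgeR adjusted p = 0.667). *Sil1*, which exchanges the nucleotide of BiP, had the lowest adjusted p of the members with a positive log2 fold change. It held 50.3 and 47.1 CPM in WT and 71.3 and 63.5 CPM in MYC-KI (0.47 ± 0.10, edgeR adjusted p = 0.0515), without overlap, and it was called higher under scaling by library size (log2 fold change 0.69).

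The remaining helpers had log2 fold changes within 0.14 of 0. *Hyou1*, another nucleotide exchange factor of BiP, had a log2 fold change of 0.06. The J-domain proteins *Dnajb11* and *Dnajc3* had values of 0.11 and -0.14. The value of *Dnajc3* was 0.087 when scaled by library size, as was that of *Manf* at 0.13 in place of -0.09, so the sign of both turned with the scaling. *Sdf2l1* and *Creld2*, small ER proteins that are induced by ER stress, both had a log2 fold change of 0.02. The edgeR adjusted p of these 6 genes ran from 0.371 for *Dnajc3* to 0.935 for *Creld2*.

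Of the sensors and their transcription factors, 0 of 6 were called by edgeR or DESeq2, 2 were at an unadjusted p under 0.05, and their median log2 fold change was -0.17. *Xbp1* held 400.5 and 441 CPM in WT and 363 and 307 CPM in MYC-KI. Its MYC-KI samples were below the WT samples, by less than the gap between the MYC-KI replicates (log2 fold change -0.33 ± 0.12, edgeR adjusted p = 0.149). *Ern1*, which encodes the broadly expressed IRE1-alpha, held 38.7 and 36.8 CPM in WT and 30.7 and 27.4 CPM in MYC-KI. *Ern2*, which encodes the IRE1-beta of mucus-secreting epithelia, held 125 and 136 CPM in WT and 194 and 159 CPM in MYC-KI. Neither gene's groups overlapped, and the IRE1 genes thus differed in sign, with log2 fold changes of -0.38 ± 0.11 for *Ern1* (edgeR adjusted p = 0.0934) and 0.44 ± 0.13 for *Ern2* (edgeR adjusted p = 0.0947). *Ern2* was called higher under scaling by library size, at 0.66.

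*Atf4* held 164 and 157 CPM in WT and 180 and 152 CPM in MYC-KI, so that its groups overlapped (log2 fold change 0.05 ± 0.11, edgeR adjusted p = 0.813). *Atf6* and *Eif2ak3*, the gene of PERK, had log2 fold changes of -0.15 and -0.18, which turned to 0.071 and 0.043 under scaling by library size. The edgeR adjusted p was 0.303 for *Atf6* and 0.279 for *Eif2ak3*.

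Among the 4 targets of the PERK branch the median log2 fold change was -0.43, and *Chac1* was the gene called. *Chac1* (chr2:119351229-119354381, plus strand) held 8.73 and 9.18 CPM in WT and 3.01 and 4.19 CPM in MYC-KI. Both MYC-KI samples were below both WT samples, and the level fell 2.48-fold (log2 fold change -1.31 ± 0.26, edgeR adjusted p = 0.0471). *Ddit3*, which encodes the transcription factor CHOP, held 12.9 and 10.4 CPM in WT and 6.96 and 8.57 CPM in MYC-KI, without overlap (-0.58 ± 0.22, edgeR adjusted p = 0.144). *Trib3*, a pseudokinase that feeds back on this branch, held 5.63 and 2.26 CPM in WT and 3.27 and 3.25 CPM in MYC-KI. The WT samples of *Trib3* lay on either side of both MYC-KI samples, and the standard error of its log2 fold change (-0.28) was 0.50, the largest in the set. *Ppp1r15a*, the phosphatase subunit that reverses eIF2-alpha phosphorylation, had a log2 fold change of -0.07, which was 0.15 under scaling by library size, and its groups overlapped.

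**Figure D3:**
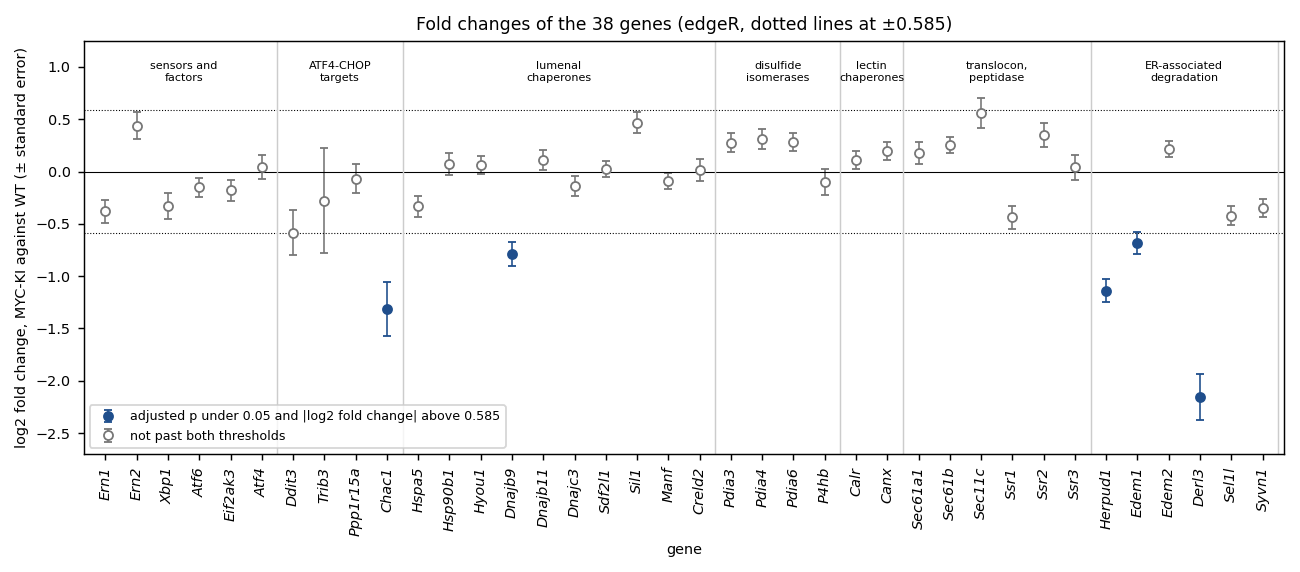
Log2 fold change of MYC-KI against WT for each of the 38 genes (vertical axis, ± standard error from edgeR), grouped by role along the horizontal axis. Filled points passed both thresholds, open points did not, and dotted lines mark a 1.5-fold change in each direction. The 5 filled points lie between -0.68 and -2.16, and no open point lies above 0.56.

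The disulfide isomerases, which form and rearrange the disulfide bonds of secreted proteins, and the lectin chaperones, which fold glycoproteins, were not among the lower genes. Of the 4 isomerases 0 were called by edgeR or DESeq2, 3 were at an unadjusted p under 0.05, and their median log2 fold change was 0.28. *Pdia3*, the partner of calnexin and calreticulin, held 778 and 785 CPM in WT and 971 and 922 CPM in MYC-KI (0.28 ± 0.09, edgeR adjusted p = 0.114). *Pdia4* held 205 and 192 CPM in WT and 235 and 258 CPM in MYC-KI (0.31 ± 0.09, edgeR adjusted p = 0.100). *Pdia6*, an isomerase that also tempers IRE1, held 292 and 305 CPM in WT and 374 and 351 CPM in MYC-KI (0.28 ± 0.09, edgeR adjusted p = 0.103). In all of these both MYC-KI samples were above both WT samples. *P4hb*, the main isomerase and a subunit of prolyl hydroxylase, had overlapping groups and a log2 fold change of -0.10, which was 0.12 under scaling by library size.

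*Calr* and *Canx*, the genes of calreticulin and calnexin, had log2 fold changes of 0.11 and 0.19 (edgeR adjusted p = 0.448 and 0.204). Both MYC-KI samples were above both WT samples in either gene, and neither was at an unadjusted p under 0.05 or called by DESeq2.

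The translocation group comprises the SEC61 channel (*Sec61a1* and *Sec61b*), the catalytic subunit *Sec11c* of signal peptidase and the translocon-associated protein (TRAP) subunits *Ssr1*, *Ssr2* and *Ssr3*. Of these, 0 of 6 were called by edgeR or DESeq2, 4 were at an unadjusted p under 0.05, and the median log2 fold change was 0.22. *Sec11c* held 67.9 and 72.2 CPM in WT and 116 and 91.0 CPM in MYC-KI, the highest log2 fold change of the set (0.56 ± 0.14, edgeR adjusted p = 0.0717). Its groups did not overlap, with a wide gap between the MYC-KI samples, and it was called higher under scaling by library size (0.78) and without MYC-KI replicate 2 (0.72).

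The TRAP subunits differed in sign. *Ssr1* held 249.7 and 236 CPM in WT and 193 and 166 CPM in MYC-KI (-0.44 ± 0.11, edgeR adjusted p = 0.0724). *Ssr2* held 128 and 111 CPM in WT and 162 and 143 CPM in MYC-KI (0.35 ± 0.12, edgeR adjusted p = 0.121). Both were without overlap between the genotypes, while *Ssr3* overlapped (0.04 ± 0.12). *Sec61a1* and *Sec61b* had log2 fold changes of 0.17 and 0.26 (edgeR adjusted p = 0.308 and 0.0999). The exons of *Ssr2* overlap *Gm10704* on the opposite strand over 12.8% of their length, and those of *Hsp90b1* overlap *1810014B01Rik* over 10.3%. Of the 50-base stretches of *Sec61b* transcripts, 17.4% also occur in *Gm10320*. Smaller overlaps were found for other members, such as *Sec61a1* (8.16%). Some reads of these genes could thus belong elsewhere. The shares are of length and not of reads, and how far the counts are affected was not tested. No such overlap was found for *Derl3*, *Herpud1*, *Edem1* or *Chac1*.

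When a WT sample is left out, the spread between replicates is estimated from the MYC-KI pair alone. The chi-square per degree of freedom between replicates was 22.7 in WT and 74.9 in MYC-KI. Its part in the values of this paragraph was not tested. Without WT replicate 1 or without WT replicate 2, 0 genes of all tested were called, although the log2 fold changes of the 5 lower members stayed between -0.65 and -2.18, and 3554 and 3410 genes were at an unadjusted p under 0.05. In these fits the genotype left with 1 sample is assumed to vary like the other. Without MYC-KI replicate 1 *Chac1* lost its call (log2 fold change -1.09, edgeR adjusted p = 0.0712), and without MYC-KI replicate 2 *Edem1* came to -0.58, just under the fold change threshold. Under scaling by library size *Dnajb9* (-0.57) and *Edem1* (-0.46) also came under that threshold, with adjusted p of 0.0377 and 0.0479.

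Beyond the set, 145 further genes of the same pathways were read from the same fit, and 143 were tested. Of these, 9 were higher and 6 lower in MYC-KI, with a median log2 fold change of 0.05. These counts were near the shares of all genes tested (5.65% and 5.08%). Scaling by library size gave 25 higher and 4 lower, against 12.9% and 4.19% of all genes tested. The largest difference was in *Pdia2*, the disulfide isomerase known from the exocrine pancreas and from chief cells. It held 550.5 and 561 CPM in WT and 38.2 and 27.5 CPM in MYC-KI, a 16.9-fold fall (log2 fold change -4.08 ± 0.20, edgeR adjusted p = 0.00975). *Bhlha15*, which encodes MIST1, held 41.1 and 38.6 CPM in WT and 11.8 and 5.19 CPM in MYC-KI, a 4.70-fold fall (-2.23 ± 0.42, edgeR adjusted p = 0.0442). Both groups of values were well apart in either gene.

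Among 25 tested genes of the integrated stress response, the wider programme of ATF4, 3 were higher and 2 lower. Their median log2 fold change was 0.27, with 17 genes above 0 and 8 below, and DESeq2 called 5 higher and 2 lower. *Psat1* and *Phgdh*, enzymes of serine synthesis, rose with log2 fold changes of 1.19 and 1.16. *Eif4ebp1*, a repressor of cap-dependent translation, rose by 0.71. *Vldlr*, a lipoprotein receptor, and *Aldh1l2*, an enzyme of mitochondrial folate metabolism, had log2 fold changes of -1.10 and -0.94 and were called lower. *Fgf21* on this list was not tested. Genes on the ATF4 list were thus called in both directions, while *Chac1* was lower and *Atf4* itself was within 0.05 of the WT level on the log2 scale.

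The other pathway lists held few calls. Of 14 further isomerases and oxidoreductases, *Pdia5* (0.88) and *Qsox1* (0.83), which introduces disulfide bonds, were higher and *Pdia2* was lower. Of 20 genes of N-glycosylation, *Mogs*, the first glucosidase of glycan trimming, was higher (0.92), and the median of the 20 was 0.23. Both MYC-KI samples were above both WT samples for 15 of them and below for 4, against 33.3% and 31.5% of all genes tested. Of 18 further genes of signal recognition and translocation *Srp14*, a subunit of the signal recognition particle, was higher (0.89). Of 24 further regulators of ER stress, *Fkbp11* (0.79) and *Eif2s1* (0.65), the gene of eIF2-alpha, were higher, and *Bhlha15*, *Creb3l2* (-0.73) and *Map3k5* (-0.65) were lower. Of 24 genes of COPII vesicles, cargo receptors and KDEL receptors, which carry folded proteins out of the ER and return its residents, 0 were called by edgeR or DESeq2, 2 were at an unadjusted p under 0.05, and the median was -0.0030.

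Markers of the cell types that secrete most in this tissue were also read from this fit. In bulk tissue, fewer cells of a type and less RNA per cell cannot be told apart. Of 10 chief cell markers 7 were lower and 1 higher (*Lrg1*, log2 fold change 2.62), and their summed level was 85637 and 81283 CPM in WT and 1351 and 1656 CPM in MYC-KI. *Pgc*, a pepsinogen and the most abundant of them, held 80998 and 76705 CPM in WT and 1043 and 1426 CPM in MYC-KI. It made up most of the sum in each sample. *Pga5*, another pepsinogen on the list, overlapped, with 34.3 and 27.0 CPM in WT and 38.2 and 23.7 CPM in MYC-KI. *Pdia2* and *Bhlha15* are also on this list. All 13 parietal cell markers were lower, with sums of 13201 and 13331 CPM in WT and 557 and 587 CPM in MYC-KI, and *Gif* stands on both lists. Of 7 surface mucous markers 5 were lower, with sums of 51135 and 60972 CPM in WT and 17773 and 20810 CPM in MYC-KI. The part of these cell types in the lower level of *Derl3*, *Herpud1*, *Edem1*, *Dnajb9* and *Chac1* was not tested.

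Cell types that could add ER genes of their own gave the following values. Of 9 markers of mucous neck and metaplastic (SPEM) cells 3 were higher and 0 lower, with sums of 12093 and 15056 CPM in WT and 25697 and 13812 CPM in MYC-KI, so that these samples overlapped. Of 14 tested markers of pancreatic acinar cells 5 were lower, with sums of 10346 and 8957 CPM in WT and 615 and 325 CPM in MYC-KI, most of it from *Pla2g1b* in WT but not in MYC-KI. *Cpa1*, *Prss2*, *Try4* and *Amy2a5*, among the defining genes of acinar cells, had 0 counts in every sample. Of 7 tested plasma cell markers 0 were called by edgeR or DESeq2 and 2 were at an unadjusted p under 0.05. Their sums were 380.0 and 341 CPM in WT and 566 and 426 CPM in MYC-KI. Most of each sum was *Sdc1* (271 and 273 CPM in WT, 345 and 361 CPM in MYC-KI). *Jchain* overlapped between the genotypes (87.9 and 47.2 CPM in WT, 205 and 45.7 CPM in MYC-KI). *Ighm*, *Igkc* and *Iglc2* had 0 counts in every sample, and it is not known whether reads could be assigned to these rows. How far the cell types of this paragraph contribute to the results was not tested either.

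The remaining lists were read in the same way. Of 8 endocrine markers 6 were lower (summed level 1579 to 2481 CPM in WT and 521 to 549 CPM in MYC-KI), of 10 leukocyte markers 3 were lower (201 to 209 and 84.9 to 86.6 CPM), and of 6 fibroblast markers 3 were lower (2352 to 2642 and 684 to 1189 CPM). Of 7 mast cell markers 5 were higher (75.4 to 101 CPM in WT and 257 to 261 CPM in MYC-KI), and of 11 intestinal markers 1 was higher and 1 lower (1821 to 2103 and 1533 to 2096 CPM). Some intestinal markers differed widely between replicates. *Cdh17* held 137 and 38.1 CPM in WT and 169 and 9.29 CPM in MYC-KI, and *Muc2* 46.3 and 23.8 CPM and 43.8 and 6.11 CPM. Of 10 squamous and 7 smooth muscle markers 0 were called by edgeR, with 1 and 0 at an unadjusted p under 0.05 and 1 and 0 called by DESeq2, and their sums overlapped between the genotypes (1594 to 2816 and 975 to 4691 CPM, and 5249 to 8309 and 2717 to 5738 CPM). Of 14 MYC target genes 12 were higher, such as *Npm1* with 141 and 151 CPM in WT and 428 and 427 CPM in MYC-KI.

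**Figure D4:**
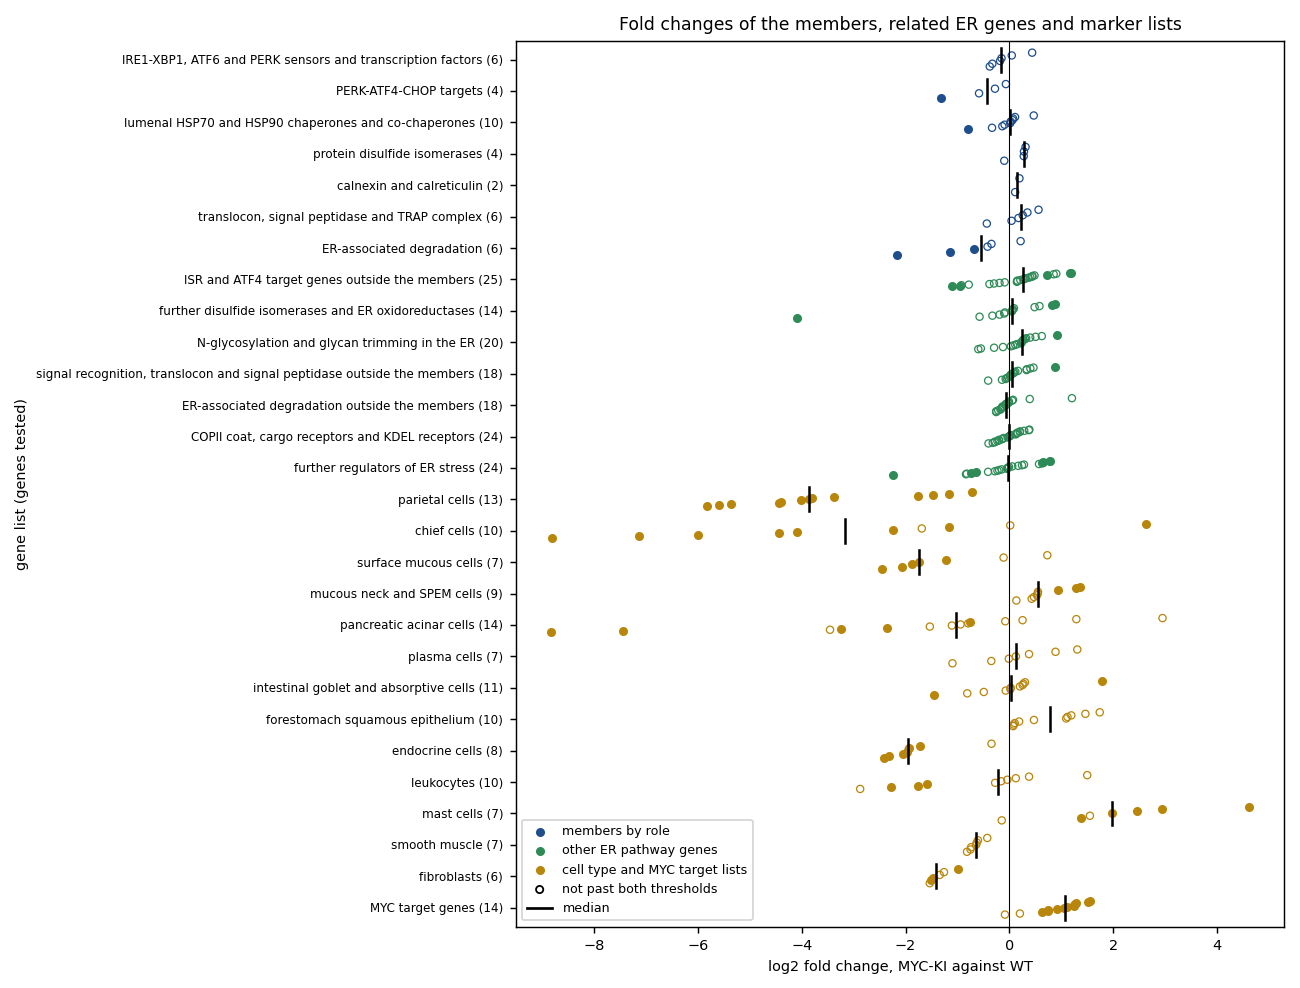
Log2 fold change of MYC-KI against WT (horizontal axis) for every tested gene of the members by role, of the other ER pathway lists and of the cell type and MYC target lists (vertical axis, with the number of genes tested). Filled points passed both thresholds, open points did not, and the black line is the median of a list. The members' medians lie between -0.55 and 0.28, while those of parietal and chief cell markers lie at -3.86 and -3.16.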

How the data were processed

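Stomach RNA was measured by bulk RNA sequencing in 2 WT and 2 MYC-KI samples. The authors deposited 1 table of raw counts per gene, not normalized, and used DESeq2 for their own comparison. The submitters' processing notes name HISAT2 and mm10, while the counting tool, annotation and strand setting are not given in the sources used here, so reads of a gene and an overlapping antisense gene cannot be told apart. The MYC-KI counts were put, row by row, against names sorted by character code, and 0 columns and 0 rows were left out. Counts were normalized by TMM, filtered by filterByExpr and tested by edgeR's quasi-likelihood test (edgeR 4.0.16, R 4.3.3) with Benjamini-Hochberg adjustment over all 17643 genes tested. Genes were called at an adjusted p under 0.05 with an absolute log2 fold change above 0.585, the study's fold threshold. CPM values use the TMM library sizes, and fold changes carry edgeR standard errors. The fit was tested on simulated data with known answers. It found 173 of 200 genes with a simulated log2 fold change of 2, and 0 of 200 with 1. In the real data *Edem1* was called at -0.68 and *Dnajb9* at -0.79. The simulation missed larger changes than these, so it does not measure how small a change could be detected in the members. A gene that was not called is still not shown to be equal between the genotypes.

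The members and the lists were chosen with earlier results of these data known. Every member could be named, and from each other list the called genes with the largest changes (at most 4 per list), the 2 most abundant genes of a marker list and *Myc*. *Eif4ebp1*, *Map3k5*, *Lrg1*, *Pga5*, *Cdh17*, *Muc2*, *Acacb*, *Spats2l* and genes with 0 counts or untested were named after their values were seen. Gene positions come from GENCODE M21 and promoters from RefSeq on GRCm38.p6, and protein sequences were not analysed here. Alternatives were the table as deposited, rows whose place is the same in either order, DESeq2 1.42.0, other scalings, filters and thresholds, a replicate block and leaving out each sample. The lowest count of a member in a sample was 63, so the least abundant members carry the most counting error.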

Additional observations from a re-analysis of the deposited data

How the results depend on the processing

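Against 1892 genes called in all, the table as deposited gave 18580, rows whose place is the same in either order 132 of 1355, DESeq2 3174, scaling by library size 3011, an absolute log2 fold change above 1 gave 1113, and leaving out 1 sample 0 to 2470. Of the members, 3 were called higher and 27 lower in the table as deposited, and 3 higher and 3 lower with library size scaling. At an absolute log2 fold change above 1, 3 were lower, and of the 6 at the same place 1 was lower (*Edem1*). Leaving out 1 sample gave 0 to 1 members higher and 0 to 4 lower. For the other pathway genes, called 9 higher and 6 lower, the values were 20 and 97 as deposited, 2 and 2 for rows at the same place, and 2 and 3 above 1, while 25, 14 and 14 were higher with library size scaling, without a filter on low counts and without a fold threshold. Leaving out 1 sample gave 0 to 14 higher and 0 to 7 lower. Rows at the same place and the stricter fold threshold give fewer calls by construction, and leaving out the fold threshold can only add calls. As deposited, names and counts are out of step between the genotypes. For the other settings, among them the fit without MYC-KI replicate 2, the cause was not tested.

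With the replicate number as a block 114 genes were called in all, 0 members higher or lower, and 0 pathway genes higher and 1 lower, with 5178 genes and 13 members at an unadjusted p under 0.05. The samples shared only a number: deviations from the group means correlated at 0.063 between samples of the same number, and with 2 pairs the numbers were not taken to pair them. The 5 lower members had adjusted p of 0.0541 to 0.0886 with the block.

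In the table as deposited, where names and counts are out of step, the log2 fold change of 19 members turned sign: *Atf4* -9.18, *Ppp1r15a* 2.32, *Chac1* 4.12, *Hsp90b1* -7.05, *Hyou1* -2.90, *Dnajb11* -0.12, *Sdf2l1* -2.63, *Sil1* -1.68, *Pdia3* -15.48, *Pdia4* -15.73, *Pdia6* -16.31, *Calr* -1.57, *Canx* -2.57, *Sec61a1* -12.89, *Sec61b* -9.63, *Sec11c* -5.60, *Ssr2* -2.26, *Ssr3* -2.45 and *Derl3* 2.23. Library size scaling turned *Atf6* to 0.071, *Eif2ak3* to 0.043, *Ppp1r15a* to 0.15, *Dnajc3* to 0.087, *Manf* to 0.13 and *P4hb* to 0.12, and rows at the same place turned *Creld2* to -0.021. Leaving out 1 sample gave -0.081 to 0.16 for *Atf4*, -0.79 to 0.53 for *Trib3*, -0.16 to 0.028 for *Ppp1r15a*, -0.0014 to 0.12 for *Hyou1*, -0.026 to 0.073 for *Sdf2l1*, -0.099 to 0.12 for *Creld2*, -0.21 to 0.012 for *P4hb* and -0.058 to 0.14 for *Ssr3*. Under DESeq2, its size factors in edgeR, no filter on low counts and a minimum of 10 counts, all 38 members kept their sign and their call by both thresholds together. By the adjusted p alone, 16 members were under 0.05 in DESeq2, 5 with its size factors, 8 without a filter and 6 with the minimum, against 5.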
